A study of Mus musculus with 18 samples.

Results

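Idh3g, Smg6, Tpr, Prps2, Ptbp3, Atrx and Zfand3 are 7 mouse genes, grouped here as non-immune, whose transcripts carried many miR-181 contacts in thymocytes. Those other than Zfand3 have known roles in metabolism, RNA decay, splicing, nuclear transport or chromatin. The 7 genes are part of 13065 protein-coding genes with at least 1 chimeric read, of which 12174 had a read of miR-181. They were chosen by measured values: their miR-181 reads and sites, the make-up of these reads by miR-181a, b, c and d, and the share lost in the knockout mice. All of these are therefore given as a description. Where a fit over all genes is cited, its fold changes, errors and calls describe the 7 genes and support nothing about them.

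The assay was miR-eCLIP. UV light of 254 nm fixes RNA to Argonaute 2 (Ago2), which carries microRNAs (miRNAs), and the miRNA is ligated to the target fragment held by the same protein. Each chimeric read names 1 miRNA and 1 position in the genome. Thymocytes, the developing T cells of the thymus, came from mice aged 6 weeks and kept under SPF conditions. The wild type was C57BL/6, and the knockout was B6.Mirc14tm1.1Ankr, called miR181a/b-1-KO in the labels, in which Mir181a-1 and Mir181b-1 are deleted. Each genotype had 3 libraries of an Ago2 immunoprecipitation (IP) as it was (here, unenriched) and 3 of an Ago2 IP enriched for miR-181 (here, enriched). No use was made here of 6 further samples, of input RNA. The labels do not say whether the 3 libraries of a group came from separate animals, so that p-values measure the spread between libraries only.

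The miR-181 family is abundant in immature thymocytes, where it is known for setting the sensitivity of T cell receptor signalling. A miRNA pairs with its target mainly through its seed, bases 2 to 8, and lowers the stability or translation of the transcript. All 4 family members share 1 seed, so that the same sites are open to all of them, and they differ only in the bases that follow. The mature sequences are shown because the reads of the 7 genes are split by them below. They are from RefSeq (GRCm38.p6), 5′ to 3′, with the seed in capitals.
miR-181a-5p: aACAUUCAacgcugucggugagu
miR-181b-5p: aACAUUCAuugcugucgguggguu
miR-181c-5p: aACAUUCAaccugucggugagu
miR-181d-5p: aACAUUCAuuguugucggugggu
Counted from the 5′ end, miR-181b differs from miR-181a by A9U, C10U and A21G and has 1 base more at its end. miR-181c is miR-181a without the base at position 11, and miR-181d differs from miR-181b by C12U and lacks its last base. The deleted hairpins lie on chromosome 1. The knockout keeps the second copies of miR-181a and miR-181b, from Mir181a-2 and Mir181b-2 on chromosome 2, and Mir181c and Mir181d on chromosome 8.

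The 12 libraries held 1190995 chimeric reads of 374 miRNAs. Wild-type unenriched libraries held 43983 to 117849 reads and knockout unenriched libraries 52100 to 67639. Wild-type enriched libraries held 194628 to 293149 reads, and knockout enriched libraries only 6832 to 19264. The family made up 31.1 ± 1.09% of reads in wild-type and 1.38 ± 0.0595% in knockout unenriched libraries, and 99.0 ± 0.207% and 71.9 ± 1.24% after enrichment (SD, n = 3 each). All 12 thymocyte markers looked for had reads, with a sum of 11783 to 16975 contacts per 1000000 reads of a library. Of 4 epithelial markers 1 had reads, up to 3.41 per 1000000, and Krt5, Krt8 and Foxn1 were at 0 in every library. The 4 B cell markers and 3 of 4 myeloid markers had reads, each list up to 51.9 per 1000000, with Cd68 at 0, and the 3 red cell markers had up to 68.2. These are miRNA contacts and not expression levels. Contacts depend on the amount of the target RNA as well as on the miRNA, and fewer cells of a type and less RNA per cell cannot be told apart in these bulk samples. Reads that repeat the position, strand and miRNA of another read of their library made up 3.24% to 7.91% of reads in the other 9 libraries, but 27.9% to 34.1% in wild-type enriched ones. A chi-square test over 136 genes found no difference between knockout enriched libraries 2 and 3 (p = 0.161), where every other pair within a group differed at p = 0.0326 or less. They were kept as separate libraries, since they differ in size, and each was left out in turn.

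Idh3g encodes the gamma subunit of the mitochondrial isocitrate dehydrogenase of the tricarboxylic acid (TCA) cycle. Its miR-181 reads numbered 55, 40 and 21 in wild-type unenriched libraries and 0, 2 and 3 in knockout ones. After enrichment they numbered 1950, 1100 and 762 in wild type and 104, 155 and 50 in knockout. The raw values of the groups did not overlap in either kind of library. With repeated reads counted, Idh3g ranked 2 of 11892 genes by miR-181 reads in wild-type enriched libraries and 1 of 5339 in knockout enriched ones. Of these reads 697 and 171 were at distinct positions or of distinct miRNAs within a library, fewer than the 824 and 186 of Smg6. Prps2, which encodes a phosphoribosyl pyrophosphate synthetase that feeds nucleotide synthesis, had 57, 19 and 25 reads in wild-type unenriched libraries and 1, 3 and 1 in knockout. Its enriched libraries held 802, 524 and 360 reads in wild type and 29, 52 and 15 in knockout. The lowest raw wild-type value was above the highest raw knockout value in each kind of library.

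Smg6 encodes the endonuclease of nonsense-mediated mRNA decay, the pathway that destroys transcripts with premature stop codons. It had 56, 42 and 20 miR-181 reads in wild-type unenriched libraries and 2, 1 and 0 in knockout. With enrichment it had 1540, 1152 and 856 reads in wild type and 103, 126 and 66 in knockout. With repeated reads counted, these were the third and second highest totals of any gene in these groups. Ptbp3, a polypyrimidine tract binding protein that regulates splicing, had 81, 37 and 23 reads in wild-type unenriched libraries against 3, 2 and 2. Its enriched libraries held 981, 571 and 444 reads in wild type and 41, 61 and 18 in knockout. Raw wild-type and knockout values of both RNA-processing genes were separate in each kind of library.

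Tpr encodes the filament protein of the nuclear pore basket. It had 59, 26 and 19 miR-181 reads in wild-type unenriched libraries and 0, 1 and 0 in knockout, the fewest of the 7 genes. Its enriched libraries held 549, 425 and 303 reads in wild type and 24, 38 and 12 in knockout. Atrx, an SNF2-type chromatin remodeller that with Daxx places histone H3.3 in heterochromatin, had 66, 36 and 24 reads in wild-type unenriched libraries and 3, 5 and 5 in knockout, the most of the 7. With enrichment it had 740, 610 and 559 reads in wild type and 90, 90 and 26 in knockout. Zfand3, which encodes an AN1-type zinc finger protein, had 75, 60 and 31 reads in wild-type unenriched libraries against 4, 3 and 1, and 812, 653 and 512 against 37, 52 and 26 after enrichment. Raw wild-type and knockout values of these 3 genes did not overlap within a kind of library.

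The raw numbers follow the sizes of the libraries as well. Wild-type enriched libraries held at least 194628 reads and knockout enriched ones at most 19264, so that separate raw values after enrichment are not read as a loss. Without enrichment miR-181 made up 31.1% of all reads in wild type and 1.38% in knockout. How many of all genes had separate raw values was not counted. Separate values are therefore not read as a trait of the 7 genes in either kind of library. Per 1000000 chimeric reads of a library, the 7 genes had means of 436 (Tpr) to 737 (Zfand3) miR-181 reads in wild type without enrichment and of 4.93 (Tpr) to 73.1 (Atrx) in knockout. After enrichment each mean was higher in knockout, as for Idh3g with 4969 ± 1473 against 7966 ± 612, Smg6 with 4732 ± 457 against 8218 ± 1573 and Atrx with 2601 ± 242 against 5288 ± 1868 (SD, n = 3). The enriched values are shares of what was recovered, and the knockout libraries recovered far fewer reads in all.

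**Figure D1:**
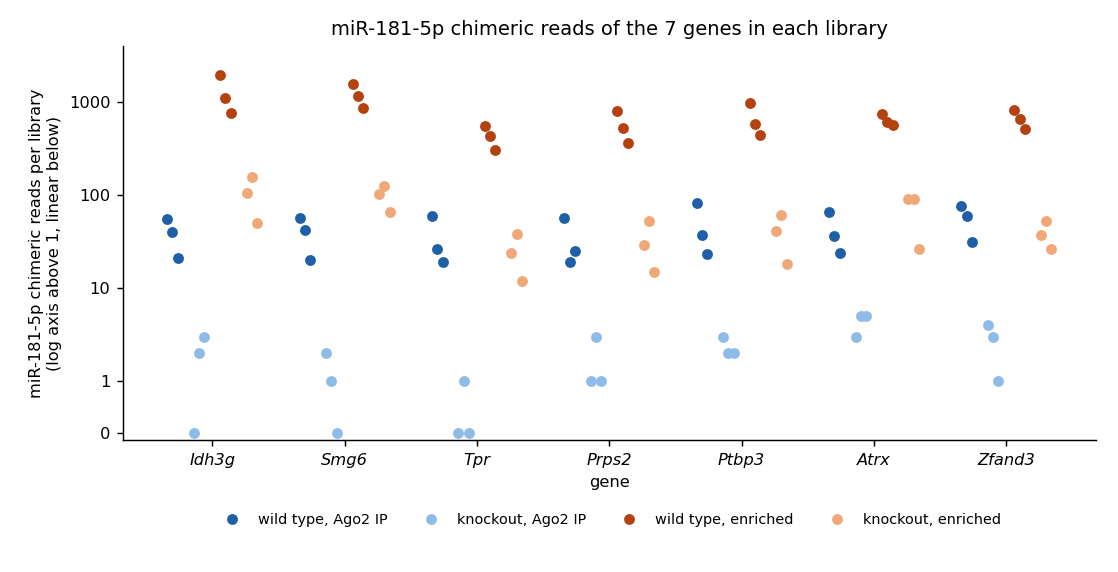
miR-181-5p chimeric reads (vertical axis, logarithmic above 1 and linear below) of each of the 7 genes in each of 12 libraries, 1 point a library, coloured by genotype and kind of IP. Each gene has 19 to 81 reads in wild-type unenriched libraries against 0 to 5 in knockout, and 303 to 1950 reads in wild-type enriched libraries against 12 to 155 in knockout.

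Within each gene most reads fell at 1 place. A site here is a group of chimeric reads, of any miRNA and library, with neighbouring positions at most 20 nt apart on the same strand. It had to hold at least 3 miR-181 reads in each wild-type enriched library. The 7 genes had 36 such sites, from 2 in Prps2 and 3 each in Idh3g and Ptbp3 to 7 in Atrx and 12 in Zfand3. Of all 13065 genes, 2370 (18.1%) had at least 1 site, with a median of 1 among these, and 68 had 7 or more. The main site of each gene took 67.8% (Zfand3), 70.2% (Atrx), 70.6% (Smg6), 76.2% (Tpr), 85.2% (Ptbp3), 94.7% (Idh3g) and 95.0% (Prps2) of its miR-181 reads in wild-type enriched libraries. With a minimum of 5 reads in each library 27 sites were counted, with 6 in place of 12 at Zfand3 and 3 in place of 5 at Tpr.

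The main site of Idh3g lay at chrX:73779985-73780325 on the minus strand (GRCm38), 1269 nt before the end of the gene counted from its most frequent position. Its reads formed 2 groups of positions, with peaks 112 nt apart. The first held 63.5% of the wild-type enriched reads of the site and 47.5% of the 101 wild-type unenriched reads, and the second held the rest. Their make-ups were alike, with miR-181b at 5.33% (95% Wilson interval 4.48% to 6.33%) and 6.38% (5.18% to 7.85%) of wild-type enriched a and b reads. The cut between them, at 60 nt, was chosen after the positions were seen. The main site of Prps2 lay at chrX:167352135-167352308, also on the minus strand, 5870 nt before the end of the gene.

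Smg6 had a pair of strong sites close to its start. The main one, chr11:74931458-74931642 on the plus strand, held 2506 wild-type enriched reads, and the second, chr11:74930384-74930745, held 765 at a distance of 875 nt. Their most frequent positions lay 5763 and 4888 nt from the start of a gene 238595 nt long. Both held at least 3 reads in each wild-type unenriched library and each knockout enriched library. In Ptbp3 the main site was at chr4:59493236-59493359 (minus strand), 21433 nt before the end of a span of 77511 nt. A second Ptbp3 site, with 137 reads, lay 1199 nt from the first.

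The main site of Tpr was at chr1:150431139-150431277 (plus strand), at 67.2% of the length of the gene. Only 4 miR-181 reads of Tpr lay in the stretch that its span shares with Prg4. In Atrx the main site, chrX:105887685-105887838 (minus strand), lay at 31.6% of the gene, and the 6 other sites held 19 to 103 reads each, 1265 to 37780 nt from it. In Zfand3 it lay at chr17:30135275-30135489 (plus strand), 130414 nt into a gene of 205785 nt, and the 11 other sites held 15 to 53 reads each. Exons, introns and UTRs were not analysed here, so that none of these sites is assigned to one of them.

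The positions within main sites were alike between kinds of library. In 6 of the 7 genes the median position of the wild-type unenriched reads lay 1 to 22 nt from that of the wild-type enriched reads. Idh3g was the exception, at 103 nt, close to the gap between its groups of positions. Medians of the knockout enriched reads lay 0 to 9 nt from those of the wild type in all 7. Reads of miR-181a and miR-181b also shared their place, with medians 0 to 4 nt apart at each main site.

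**Figure D2:**
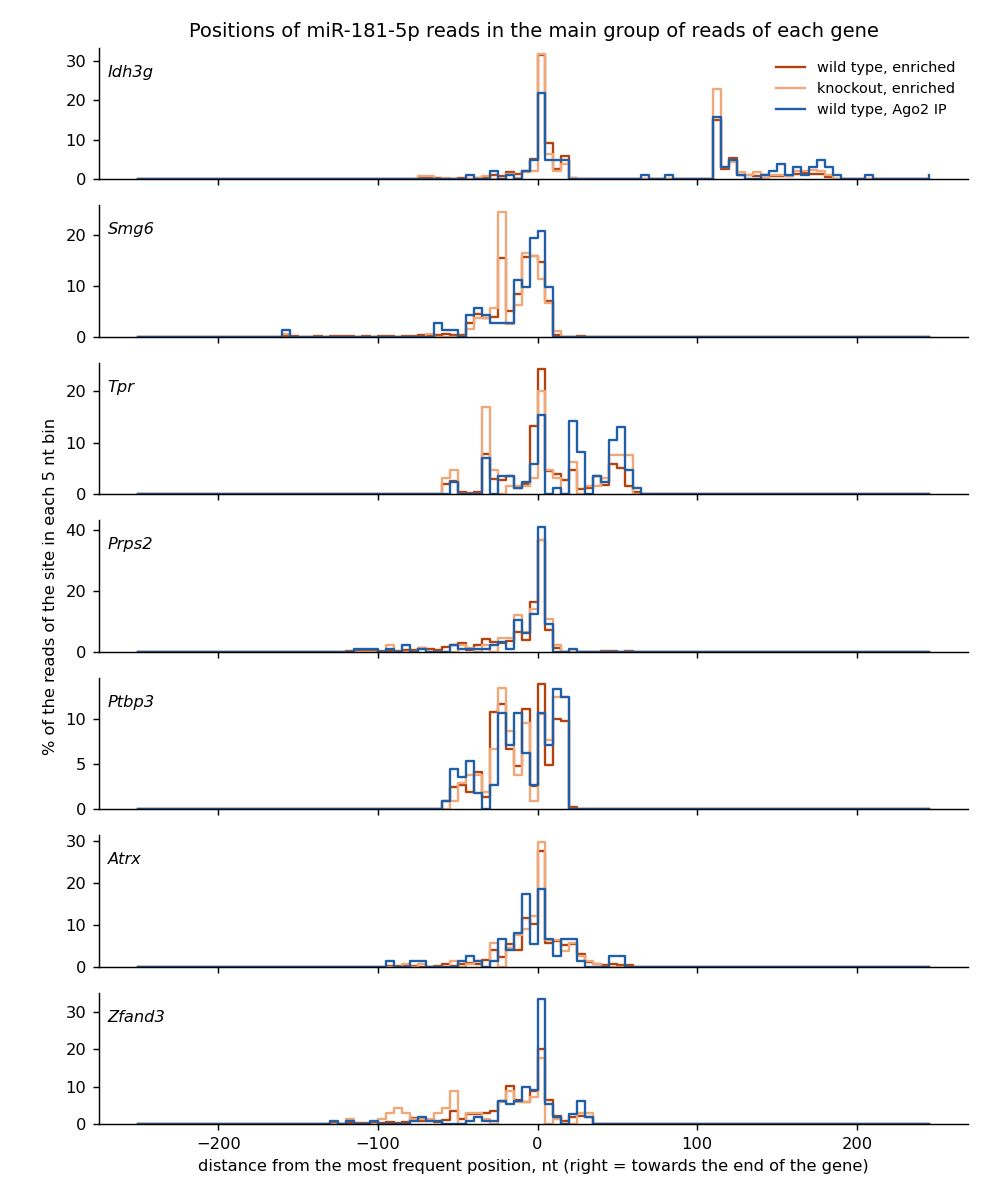
Share of the miR-181-5p reads of each main site (vertical axis, %) in 5 nt bins of distance from the most frequent position (horizontal axis, nt), for wild-type enriched, knockout enriched and wild-type unenriched libraries, each summed over 3 libraries. The 3 lines of a gene peak in the same bins in most panels, and Idh3g has a second group of reads 112 nt from the first.

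The genes differed in which family member their reads named. How reads were assigned between miR-181a and c, or b and d, which differ in few bases, is not stated in the sources used here, and every share below depends on it. Among all miR-181 reads miR-181b made up 18.5 ± 1.51% in wild-type enriched and 22.4 ± 0.380% in wild-type unenriched libraries (SD, n = 3). At Atrx it made up 35.1%, 42.0% and 42.0% in the 3 wild-type enriched libraries and 48.5%, 55.6% and 41.7% in the 3 wild-type unenriched libraries. Every one of these 6 values was above that of all reads. At Tpr, by contrast, the values were 2.73%, 4.94% and 4.62% after enrichment and 6.78%, 19.2% and 10.5% without enrichment. All 6 were below that of all reads. The other 5 genes lay between 4.24% (Prps2) and 12.5% (Zfand3) in single wild-type enriched libraries.

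Counts of miR-181b against miR-181a were fitted in edgeR over 1945 genes, with the library as a block, and a gene was called at an adjusted p of at most 0.05. All 7 genes were called in wild-type enriched libraries, 1 higher and 6 lower, beside 33.3% of all genes tested (18.7% higher and 14.7% lower). Since the make-up was among the values used to choose the genes, nothing is read from this count. Atrx had a log2 ratio of 1.67 (SE 0.10), the 126th highest. Tpr had -2.33 (SE 0.18), the 21st lowest. Log2 ratios of the others were -1.82 for Prps2, -1.65 for Idh3g, -1.49 for Ptbp3, -1.25 for Smg6 and -0.67 for Zfand3, with SEs of 0.11 to 0.15. Each direction held in 3 of 3 libraries, and the median was -1.49 over the 7 genes and -0.05 over all genes tested.

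For 5 of the 6 genes with less miR-181b the call was lost with repeated reads counted once. Of the 3543 miR-181a reads of Idh3g in wild-type enriched libraries 541 were distinct, against 125 of its 230 miR-181b reads. They lay on 302 and 87 positions. The larger count of miR-181a shrinks more under this rule, whether or not repeats are copies, which raises the share of miR-181b. Whether repeats are copies was not tested. Counted once, miR-181b was 18.8% of a and b reads at Idh3g in place of 6.10%, 19.9% at Smg6 in place of 8.02%, and 18.1% at Zfand3 in place of 11.5%. The same shares over all reads outside the deleted hairpins were 19.8% and 17.9%. With repeats counted once, log2 ratios were 0.01 for Idh3g, 0.10 for Smg6, -0.07 for Zfand3, -0.15 for Ptbp3 and -0.35 for Prps2, none of them called. Tpr (-1.12) and Atrx (1.20) kept their calls.

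The unenriched libraries gave a second reading at lower depth. Repeats were fewer there but differed between the genes and between family members. They made up 9.52% of the miR-181 reads at Atrx in wild-type unenriched libraries, 14.4% at Smg6, 18.1% at Idh3g, 21.7% at Zfand3, 25% at Tpr, 29.8% at Ptbp3 and 41.6% at Prps2. Of reads of miR-181a alone 45.1% were repeats at Prps2 and 34.7% at Ptbp3, where 0% to 12.5% of reads of miR-181b were, while at Atrx it was 3.39% of miR-181a and 16.1% of miR-181b reads. Of 6 genes with enough reads there, among 89, 4 were called, beside 30.3% of all genes tested (15.7% higher and 14.6% lower). Atrx was again higher in miR-181b, with a log2 ratio of 1.94 (SE 0.30), and was called without each library in turn and in DESeq2. In knockout enriched libraries miR-181b was 66.4% of the a and b reads of Atrx (95% Wilson interval 57.9% to 74.0%), beside 29.8% over all reads outside the deleted hairpins. Smg6 (-1.24), Ptbp3 (-1.22) and Tpr (-1.18) were called lower, but none of these 3 in DESeq2. Smg6 lost the call without any 1 library, Tpr without library 2 or 3, and Ptbp3 without library 1 or 2, and Tpr had too few reads without library 1. With repeats counted once Smg6 kept the call (-1.13), and Ptbp3 (-0.75) and Tpr (-0.86) lost it. Idh3g (-0.64) and Zfand3 (-0.66) were not called, and Prps2 had too few reads.

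The high miR-181b share of Atrx was found at several of its sites. At its main site miR-181b made up 44.9% of a and b reads in wild-type enriched libraries (95% Wilson interval 42.2% to 47.6%). It was also 35.3% (26.7% to 44.9%), 56.8% (45.4% to 67.4%) and 29.2% (19.6% to 41.2%) at the next 3 sites. At the fifth and sixth sites it was 3.03% (0.835% to 10.4%) and 6.06% (1.68% to 19.6%), and at the seventh 61.1% (38.6% to 79.7%). These intervals cover counting error only, and those of the fifth site and of the main site do not meet. At the main site of Tpr 17 of 973 reads named miR-181b, 1.75% of a and b reads and the lowest of the 7 main sites.

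**Figure D3:**
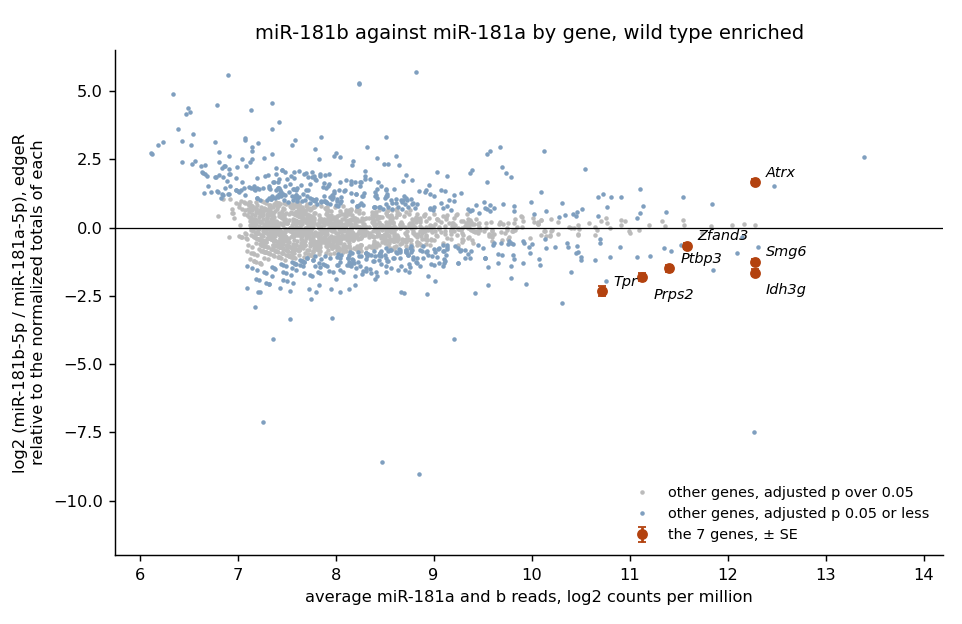
Log2 ratio of miR-181b-5p to miR-181a-5p reads (vertical axis, relative to the normalized total of each) against the average number of such reads (horizontal axis, log2 counts per 1000000) for 1945 genes in wild-type enriched libraries, all reads counted. The 7 genes are marked with their SE, Atrx at 1.67 and the others from -2.33 (Tpr) to -0.67 (Zfand3), and colour separates other genes at an adjusted p of 0.05.

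Summed over the 7 genes, miR-181 reads numbered 872 in wild-type unenriched libraries and 42 in knockout, and 16205 and 1215 in the enriched libraries. These raw numbers correspond to 4.82% (95% exact interval 3.45% to 6.57%) and 7.50% (7.07% to 7.95%) kept. Of all miR-181 reads outside the deleted hairpins 3.60% and 4.30% were kept. Neither interval goes beyond the error of counting, and 1 molecule may stand behind several reads. The 7 genes made up 2.21% of miR-181 reads in wild-type enriched libraries and 4.41% in knockout ones.

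Without enrichment Tpr kept 1 read of 104, or 0.962% (0.0241% to 5.48%), and Smg6 3 of 118, or 2.54% (0.517% to 7.61%). Idh3g, Zfand3, Prps2 and Ptbp3 kept 4.31%, 4.82%, 4.95% and 4.96%, with wide intervals that all held the median of 3.24% over the 172 genes with at least 50 wild-type reads. Atrx kept the most, 13 reads of 126, or 10.3% (5.35% to 18.3%), a share above that of 97.1% of these genes. In the enriched libraries, with all reads counted, Atrx kept 10.8% (9.30% to 12.5%), Smg6 8.31% and Idh3g 8.11%. Ptbp3, Zfand3, Tpr and Prps2 kept 5.69% to 6.01%. All 7 lay above the median of 3.77% over 1311 genes with at least 100 wild-type reads, at percentiles of 82.5 to 98.5.

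Counting repeats once raised the kept share in the enriched libraries from 7.50% to 17.6% for the 7 genes, and from 4.30% to 4.98% for all miR-181 reads outside the deleted hairpins. At the 7 genes it left 4714 of 16205 wild-type reads and 830 of 1215 knockout reads. Large counts on few positions shrink more under this rule, whether or not repeats are copies, so that the rise is not read as a property of the genes. Idh3g moved most, from 8.11% to 24.5%, and Zfand3 least, from 5.82% to 10.3%. The order of the genes changed with it, so that no order of kept shares after enrichment is read here. Without enrichment 676 of the 872 wild-type reads were distinct. The shares stayed within their intervals and Atrx was still the highest, at 11.4%.

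**Figure D4:**
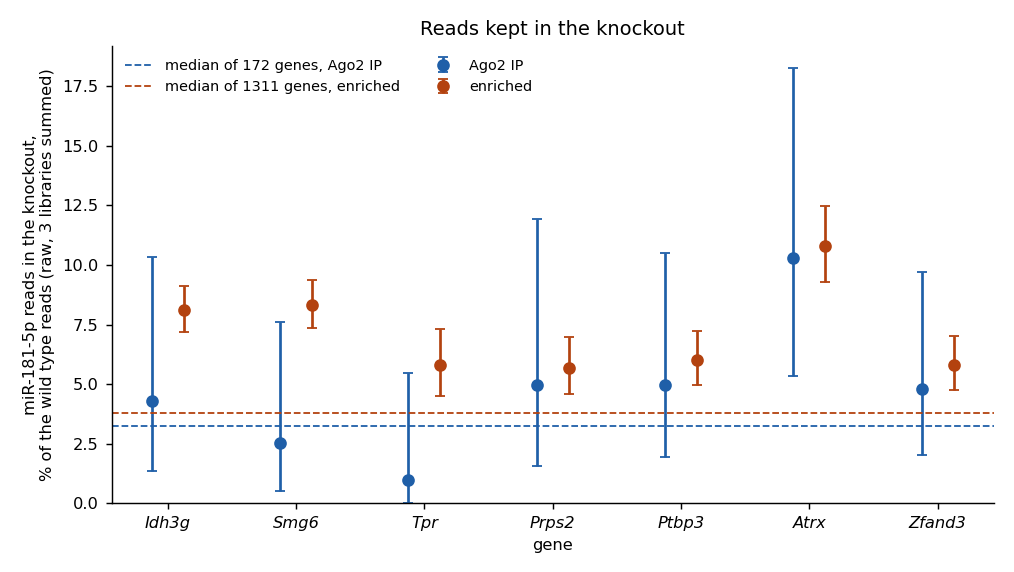
Raw miR-181-5p reads of each gene in knockout as a percentage of those in wild type (vertical axis), for unenriched and enriched libraries, each the sum of 3 libraries with a 95% exact interval for counting error. Dashed lines mark the medians over 172 and 1311 genes, 3.24% and 3.77%. With all reads counted Atrx lies at 10.3% and 10.8%, and its place as the highest after enrichment did not hold with repeats counted once.

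Split by family member, the loss was one of miR-181a and miR-181b. The 7 genes kept 4.78% of their miR-181a reads (14300 to 683) and 9.35% of their miR-181b reads (1765 to 165) in the enriched libraries, beside 2.42% and 4.70% over all reads outside the deleted hairpins. In these libraries reads of miR-181c went the other way in raw number, from 103 to 299 over the 7 genes, or 290% (231% to 367%). The knockout enriched libraries nevertheless held only 38282 reads in all against 741279. Over all such reads miR-181c went from 4591 to 6123, or 133%. With repeats counted once the 7 genes had 212% and all such reads 131%. At Idh3g miR-181c reads numbered 36 in wild type and 116 in knockout, at Atrx 12 and 49, at Ptbp3 25 and 41, and at Prps2 10 and 35. Without enrichment no such rise was seen. There miR-181c reads numbered 11 in wild type and 13 in knockout over the 7 genes, or 118% (48.9% to 291%). Over all reads outside the deleted hairpins they numbered 571 and 553, or 96.8%.

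In the knockout enriched libraries the family members were thus more evenly mixed. Over all reads they were 45.4 ± 0.627% miR-181a, 19.6 ± 1.21% b, 22.3 ± 0.774% c and 12.7 ± 0.363% d (SD, n = 3). miR-181c made up 35.6%, 41.3% and 30.0% of the reads of Idh3g in the 3 libraries, all above the value of all reads. It made up 27.6%, 46.2% and 20.0% at Prps2 and 34.1%, 37.7% and 22.2% at Ptbp3, where the third and smallest library fell lower. At Smg6 the values were 8.74%, 7.14% and 13.6%, all below that of all reads. At Tpr, with 74 reads in all, miR-181c had 0 of 24, 3 of 38 and 3 of 12 reads in the 3 libraries. miR-181d made up 14.1% of the reads at Atrx, 6.09% at Zfand3 and 3.24% to 4.41% at Idh3g, Prps2, Ptbp3 and Smg6, and 0 of 74 at Tpr (95% Wilson upper bound 4.93%).

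Reads of miR-181c and d against those of a and b were fitted in edgeR with the library as a block, over the 26 genes with enough reads. Smg6 and Tpr were called, both lower, beside 38.5% of all genes tested (11.5% higher and 26.9% lower), and nothing is read from this count. Smg6 had a log2 ratio of -1.70 (SE 0.25) and was lower in 3 of 3 libraries. It was called without each library in turn, in DESeq2, and with repeats counted once (-1.16), but not with no filter on low counts (-2.33). Tpr had -2.51 (SE 0.52), but was not called in DESeq2 (-2.48), with no filter (-3.13), or without library 1 or 3 (-1.97 and -3.36), and had too few reads without library 2 and with repeats counted once. Idh3g (0.41), Prps2 (0.40), Ptbp3 (0.26), Atrx (0.22) and Zfand3 (-0.41), with SEs of 0.21 to 0.28, were not called. Idh3g was called in DESeq2 (0.49) and when library 1 or 2 was left out (0.44 and 0.56), and so was Atrx without library 2 (0.69). With no filter the ratios of Idh3g, Prps2, Ptbp3 and Atrx were below 0, from -0.42 to -0.24. Both strong sites of Smg6 were low in miR-181c, at 7.69% of 195 reads (95% Wilson interval 4.72% to 12.3%) and 11.6% of 95 (6.59% to 19.6%).

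**Figure D5:**
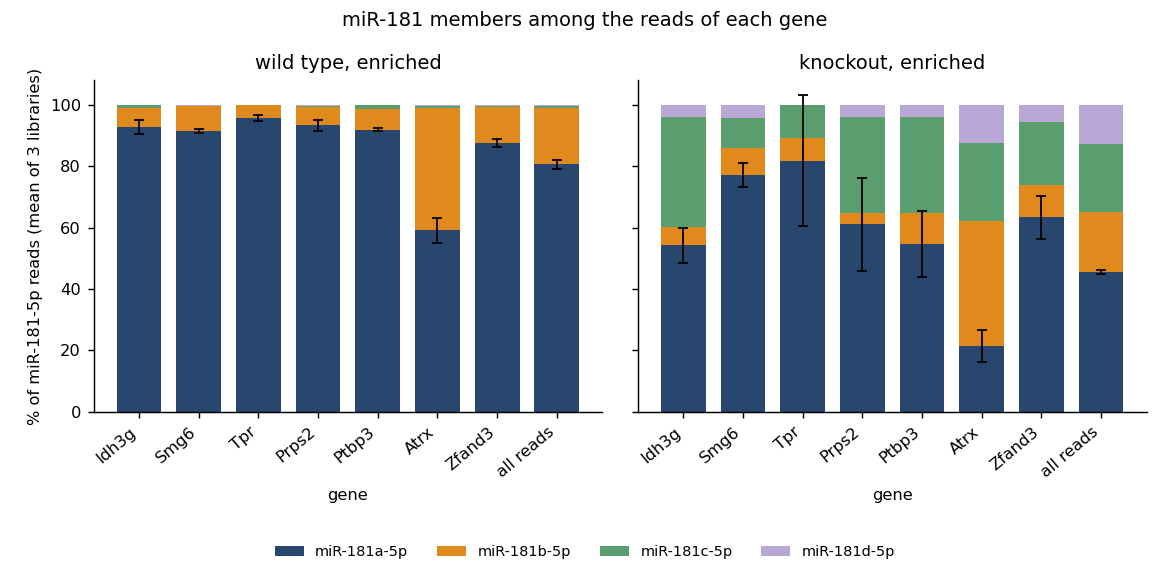
Make-up of the miR-181-5p reads of each gene and of all reads (stacked bars, % of reads, mean of 3 libraries, with the SD of miR-181a as error bar) in wild-type and in knockout enriched libraries. In the wild type Atrx stands out by its miR-181b share, 39.7 ± 3.97%, and in knockout miR-181c is 35.6 ± 5.65% of the reads at Idh3g and 9.84 ± 3.38% at Smg6.

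With the reads of all miRNAs summed, the genes lost contacts to different extents. Without enrichment, 6 of the 7 were called in edgeR for knockout against wild type, all lower, beside 10.2% of 1555 genes (6.88% lower and 3.34% higher). The loss in the knockout was used to choose the genes, so that the calls here and after enrichment are a description. Log2 fold changes were -3.10 (SE 0.34) for Idh3g, -2.86 (SE 0.34) for Prps2, -1.63 (SE 0.26) for Tpr, -1.14 (SE 0.21) for Ptbp3, -1.01 (SE 0.18) for Zfand3 and -0.96 (SE 0.19) for Smg6. Atrx had -0.33 (SE 0.19) and was not called. The reads summed here include those of miR-181, so that the order is in part fixed by the miR-181 share of each gene. In wild-type unenriched libraries this share was 87.9% at Idh3g, 83.5% at Prps2, 73.8% at Tpr and 71.9% at Ptbp3. It was 57.2% at Zfand3 and 52.9% at Smg6. Atrx, at 65.3%, did not keep to this order, and nothing is read from it.

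Relative to the other reads of each enriched library, no gene of the 7 was called in edgeR or in DESeq2, beside 4.12% of 2062 genes in edgeR (1.36% higher and 2.76% lower), where 375 genes had an unadjusted p under 0.05, and 43 genes in DESeq2. Log2 fold changes were 0.76 (SE 0.21) for Atrx, 0.45 (SE 0.16) for Smg6 and 0.35 (SE 0.21) for Idh3g, and between -0.17 and -0.06 for the other 4, beside a median of -0.16 over all genes. No direction is given for these 4, whose values were above 0 with library sizes alone, with repeats counted once and without wild-type library 1. With library sizes alone Atrx (0.93) and Smg6 (0.64) were called, both higher. Without wild-type library 1 Atrx, Smg6 and Idh3g were called, all higher (0.96, 0.73 and 0.85), as was Atrx without wild-type library 3 (1.03). Only 324 and 312 genes were tested there, against 2062 with all libraries. With repeats counted once 6 of the 7 were called, all higher, from 0.62 (Zfand3) to 1.81 (Idh3g). At these genes that setting removes more reads from the deeper wild-type libraries, as given above. With no filter on low counts 4 were called, all lower, from -0.83 (Prps2) to -0.73 (Zfand3), and Idh3g and Smg6 were also below 0, at -0.32 and -0.25. The library values of Smg6, as normalized log2 counts per 1000000, did not overlap between the genotypes and were higher in knockout. These values compare shares of what the enrichment recovered and say nothing of the absolute number of contacts.

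Contacts of other miRNAs at the same genes were about as many in both genotypes in raw number. Outside the miR-181 family the 7 genes had 424 reads in wild-type unenriched libraries and 417 in knockout. These libraries held 230906 and 180528 chimeric reads in all, so that like raw numbers are not like shares. Of the 5 genes with enough such reads none was called in edgeR or in DESeq2, beside 1.78% of 1346 genes in edgeR (0.52% higher and 1.26% lower) and 4 genes in DESeq2. At an unadjusted p under 0.05 edgeR had 166 genes, among them Atrx. Log2 fold changes were -0.41 (SE 0.23) for Smg6, -0.37 (SE 0.21) for Zfand3, -0.24 (SE 0.35) for Tpr, 0.03 (SE 0.28) for Ptbp3 and 0.54 (SE 0.24) for Atrx. In the normalized values of this fit, which counts reads of other miRNAs only, the libraries of the 2 genotypes did not overlap for Smg6 and Atrx. Smg6 was lower in knockout there and Atrx higher. As shares of all chimeric reads of a library, the values of Smg6 overlapped, with a higher mean in knockout. Those of Atrx were again higher in knockout without overlap. How many of all genes tested had separate values is not given here. Reads of Atrx with other miRNAs numbered 67 in wild type and 109 in knockout, beside 126 and 13 with miR-181. Idh3g and Prps2 were too low to test, at 16 and 7 and at 20 and 8 reads.

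The leading other miRNA was miR-142a-3p, which is specific to blood cells and has another seed.
miR-142a-3p: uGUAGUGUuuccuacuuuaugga
It made 395 of the 841 unenriched reads of other miRNAs at the 7 genes, or 47.0%, and 96 of 176 at Atrx. The main miR-181 sites held 4 of the 105 reads of other miRNAs at Smg6 and 4 of 37 at Tpr in wild-type unenriched libraries, but 26 of 124 at Zfand3 and 8 of 16 at Idh3g. At the Zfand3 site the reads of other miRNAs numbered 26 in wild type and 4 in knockout, the most frequent being let-7a-5p with 6. Tpr had its own miR-142a-3p site at chr1:150428130-150428173, with 7 reads in wild type and 11 in knockout.

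The pathways of the 7 genes were looked at through 75 partner genes. All 75 had miR-181 reads in wild-type enriched libraries, but few had many. A site was present in 5 of 16 genes of the TCA cycle, 4 of 9 of nonsense-mediated decay, 3 of 14 of the nuclear pore, 2 of 12 of purine synthesis and salvage, 2 of 4 of the PTB family and partners, 8 of 14 of the Atrx partners and remodellers, and 2 of 6 AN1-type zinc finger genes. Over all genes with a chimeric read the share was 18.1%. The highest were Smg1, the kinase that starts nonsense-mediated decay, with 903 reads and 7 sites, the remodeller Chd1 with 707 reads and 6 sites, and the remodeller Chd4 with 453 reads and 3 sites. In the TCA cycle Fh1, fumarate hydratase, led with 207 reads, far below the 3812 of Idh3g.

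Of the partner genes 18 could be tested for a change of all contacts in knockout without enrichment. The lowest edgeR adjusted p was 0.0717, for Smg1 (-0.56, SE 0.21). In the enriched libraries 1 of 21 passed, Smg1, which was lower (-1.18, SE 0.24, edgeR adjusted p = 0.00888). For miR-181b against miR-181a in wild-type enriched libraries 12 of 21 passed, 7 higher and 5 lower, beside the 33.3% of all genes tested. With repeats counted once 10 of the 17 with enough reads passed, 5 higher and 5 lower, beside 28.3% of 1782 genes, and 9 of these were among the 12. With all reads counted, Upf1 (1.94), Upf2 (1.66) and Smg9 (2.25) of nonsense-mediated decay were higher in miR-181b, while Smg1 (-0.93) was lower. Among remodellers and Atrx partners Smarca4 (0.62) was higher, and Chd1 (-0.77), Chd2 (-0.80) and Setdb1 (-1.39) were lower. Nup153 (1.07) and Nup155 (1.24) of the nuclear pore were higher. Fh1 (1.01) was higher and Sdha (-1.42) lower.

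The genes whose miR-181 reads per 1000000 followed the mean of the 7 most closely over the 12 libraries were Prkch (r = 0.998), Ckap5 (0.995), Zfp809 (0.994), Phf1 (0.993) and Tmem164 (0.993). The 12 libraries share 4 conditions that differ strongly in miR-181, and 30.1% of 2772 genes compared had an r above 0.9. Prkch, which encodes a protein kinase C, had 1489 miR-181 reads in wild-type enriched libraries and 106 in knockout ones, and 94 and 4 without enrichment. The other 4 had 98 to 715 reads in wild-type enriched libraries.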

How the data were processed

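Chimeric reads of 12 libraries were analysed, 3 for each genotype and kind of IP. Per the submitters' processing notes, Bowtie2 2.4.5, SAMtools 1.11, STAR 2.7.10, UMI-tools 1.1.1 and bedtools 2.30.0 were used with the builds mm10 and GRCm38.p6; the role of each is not stated there. The deposited values are read counts, 1 line per chimeric read with its miRNA, strand and 1 position. Reads were counted here in RefSeq GRCm38.p6 spans of 21900 protein-coding genes, on the strand of the gene (for Ptbp3, the strand of most reads); 81.6% fell in a span and 0.552% in more than 1. Without exon models, sites are given by position only.

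Counts per gene were fitted with edgeR 4.0.16 (glmQLFit, after TMM scaling, on genes past filterByExpr at 10 reads; R 4.3.3), with Benjamini-Hochberg adjustment over all genes tested and a threshold of 0.05; DESeq2 1.42.0 was an alternative. The reads of each library assigned to different family members were compared with the library as a block. The scripts were tested on simulated data. Shares have 95% Wilson intervals and kept reads 95% exact intervals, for counting error only. The other alternatives were library sizes alone, no filter, repeats counted once, other site rules and leaving out each library. The 7 genes, the partner lists and the marker lists were chosen with earlier results of these data known, so that calls of the 7 genes are descriptions. Partner genes are named if called or among the 3 of a list with most miR-181 reads, and 5 genes by the closest profile. Log2 fold changes follow the sign of knockout minus wild type.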

Additional observations from a re-analysis of the deposited data

Results flagged for a closer look

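The summed contacts of Smg6 with all miRNAs moved in opposite directions in the knockout in the 2 kinds of library. All 3 knockout libraries lay below all 3 wild-type libraries without enrichment, with a log2 fold change of -0.96, and above them after enrichment, with 0.445. The difference between the 2 was not tested, and Smg6 was not called after enrichment (edgeR adjusted p = 0.143). Fold changes of Idh3g (-3.10 and 0.35) and Atrx (-0.33 and 0.76) also differed in sign, but their values overlapped between genotypes after enrichment. How many of all genes had such opposite values was not counted. The values after enrichment compare shares of libraries that held 98.8% to 99.2% miR-181 reads in wild type and 70.5% to 72.6% in knockout.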

How the results depend on the processing

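Knockout enriched libraries are small, and repeated reads are frequent in wild-type enriched ones, so that levels and orders after enrichment are the least firm values here. Of 366 values of the 7 genes under alternatives, 299 kept direction and side of the threshold, 20 lost the call, 19 gained it and 28 changed sign, most of them from values close to 0; the cause was not tested. For knockout against wild type after enrichment, library sizes alone gave 0.0203 for Tpr, 0.00218 for Prps2, 0.0978 for Ptbp3 and 0.121 for Zfand3, and repeats counted once gave 0.657, 1.40, 1.45 and 0.623. No filter gave -0.319 for Idh3g and -0.247 for Smg6. Without 1 library the ranges were -0.0258 to 0.850 for Idh3g, -0.560 to 0.139 for Tpr, -0.655 to 0.234 for Prps2, -0.460 to 0.363 for Ptbp3 and -0.344 to 0.174 for Zfand3. For other miRNAs Ptbp3 had -0.00167 with the replicate number as a block and -0.143 to 0.189 without 1 library. With repeats counted once miR-181b against miR-181a was 0.0101 for Idh3g and 0.102 for Smg6 in wild-type enriched libraries. For miR-181c and d against a and b, no filter gave -0.239 for Idh3g, -0.270 for Prps2, -0.398 for Ptbp3 and -0.417 for Atrx, and Prps2 ranged from -0.125 to 0.651 without 1 library.

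Genes called in the knockout numbered 159 without enrichment (51 in DESeq2, 3 higher and 48 lower, against 52 and 107 in edgeR; 112 to 143 without 1 library). After enrichment 85 were called (28 higher, 57 lower), 43 in DESeq2 (27 and 16), 67 with library sizes alone (36 and 31), 237 with no filter, where far more genes were tested, and 26 to 68 without 1 library (42 without wild-type library 2 and 26, 30 and 41 without knockout libraries 1, 2 and 3). Genes tested numbered 312 to 324 without a wild-type library and 3348 to 3492 without a knockout one, against 2062 with all. For other miRNAs 24 were called, 4 in DESeq2 and 13 to 23 without 1 library, lowest without knockout library 2. For miR-181b against miR-181a 648 were called after enrichment (363 higher, 285 lower), 256 in DESeq2 (170 and 86) and 256 to 293 without any 1 library, where fewer samples were left. Without enrichment 27 were called (14 and 13), 4 in DESeq2 (4 and 0), 22 with library sizes alone (8 and 14), 105 with no filter, 11 with repeats counted once and 6 to 28 without 1 library (6 without library 1 and 6 without library 2). For miR-181c and d against a and b 10 were called, 1 with no filter and 3 to 8 without 1 library, lowest without library 3. The 7 genes kept 3.95% to 6.62% of miR-181 reads without enrichment when 1 library was left out, and 5.93% to 9.27% after it; with repeats counted once they kept 17.6% after enrichment.

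Replicate numbers did not pair the libraries of the genotypes, since the deviations of libraries with the same number correlated at -0.115 to 0.00329. With the replicate number as a block 119 genes were called without enrichment, 22 after it and 21 for other miRNAs. Without the library as a block the make-up tests called 613, 20 and 10 genes.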
